A study of Mus musculus with 24 samples.

Results

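The genes described here are those named for the protein parts of the mitochondrial ribosome. They were chosen by symbol, as protein-coding mouse genes whose name starts with Mrpl or Mrps followed by a digit. The rule gave 78 genes of 21627 protein-coding genes of the autosomes and the X chromosome, 49 with large subunit symbols (Mrpl) and 29 with small subunit symbols (Mrps). No measured value entered the choice.

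The study mapped chromatin by immunoprecipitation and sequencing (ChIP-seq) in 4 mouse leukaemia lines, each named for its fusion of the nuclear pore gene NUP98: NUP98-NSD1, NUP98-JARID1A, NUP98-HOXD13 and NUP98-HOXA9. All cells were grown with IL-3, IL-6 and stem cell factor and received either the solvent DMSO or VTP50469, an inhibitor of the contact between menin and the histone methyltransferase MLL1. MLL1 was mapped in all 4 lines, Menin in NUP98-HOXD13 and NUP98-HOXA9, and the histone mark H3K4me3 in the latter, each in 1 DMSO and 1 VTP50469 library, which makes 7 pairs and 14 lists of called regions. VTP50469 was given at 2 µM for 96 h, except that MLL1 in NUP98-HOXA9 was mapped at 72 h and that the label of the treated NUP98-NSD1 library gives 200 nM, which conflicts with the general treatment protocol, where only 2 µM is named. The label was followed here, so the dose of that library is uncertain. The DMSO cells had the same times. How the lines were made, and whether each is 1 clone, is not given in the sources used here. A difference between lines cannot be told apart from a difference in dose or time where these differ.

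The mitochondrial ribosome translates the few messages encoded in mitochondrial DNA, which specify core subunits of the respiratory chain. Its RNAs come from mitochondrial DNA, whereas all of its proteins come from nuclear genes that are transcribed in most tissues, translated in the cytosol and imported. MLL1 is a methyltransferase of lysine 4 of histone H3, menin is its cofactor, and trimethylation of that lysine marks the start sites of transcribed genes. Acute myeloid leukaemia cells are known to depend on mitochondrial translation.

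Since every condition has 1 library, no replicate error and no p-value can be had, and the 95% Wilson intervals given for shares cover counting error over genes only. The lists held from 403 to 24950 regions, and the weakest region of each had a −log10 q between 2 and 2.07, so absence from a list means no call above that limit. Read depth is unknown from these lists. Ptprc, Spi1, Runx1, Mpo and Kit, genes of blood cells, had MLL1 regions at 4 or 5 of 5 genes in the DMSO lists of 3 lines and at 1 of 5 in NUP98-NSD1, and Alb, Ins2, Myh6, Krt5 and Cd3e, 5 markers of other cell types, had none in any list (0 of 5). A gene is called bound when a region touches the 1 kb either side of either annotated gene end. It is lost when it was bound in DMSO and not after VTP50469, and gained in the opposite case. Covered length is the number of bases in regions from 2 kb before to 2 kb after the gene, and it is a length, not a level of binding.

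Promoter sequence was at hand in RefSeq (assembly GRCm38.p6, the build of the lists) for 69 of the 78 genes. The bases just before the start site are shown for the members on which the comparison of the DMSO and VTP50469 lists turns, 5′ to 3′ on the strand of the gene, where at least 60 bases lay outside every other gene. Mrpl17 and Mrpl32 were among the 4 members with MLL1 in NUP98-NSD1 after VTP50469. For the others of these 4, Mrpl2 and Mrpl30, only 31 and 27 bases were free of the neighbouring genes Klc4 and Mitd1, and none are shown. Mrps30 had at most 50% of its MLL1 length left in every line. Mrpl3, Mrpl35 and Mrps25 lost MLL1 in more than 1 line. Capitals mark matches, on either strand, to 5 short motifs known from housekeeping promoters: GCATGCGC (NRF1), CCGGAAG (ETS factors), AAGATGGC (YY1), CCAAT (NF-Y) and GGGCGG (SP factors).
Mrpl17, chr7:105811088-105811337, minus strand: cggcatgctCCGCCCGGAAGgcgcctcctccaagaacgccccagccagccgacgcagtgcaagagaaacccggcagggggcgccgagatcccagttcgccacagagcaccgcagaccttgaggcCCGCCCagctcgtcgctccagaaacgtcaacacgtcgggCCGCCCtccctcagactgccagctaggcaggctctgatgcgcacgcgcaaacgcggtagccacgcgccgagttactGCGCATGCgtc
Mrpl32, chr13:14613038-14613241, minus strand: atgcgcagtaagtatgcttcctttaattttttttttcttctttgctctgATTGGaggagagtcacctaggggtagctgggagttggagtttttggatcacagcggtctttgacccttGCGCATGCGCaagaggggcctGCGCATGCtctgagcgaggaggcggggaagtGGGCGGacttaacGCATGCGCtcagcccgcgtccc
Mrps30, chr13:118387253-118387502, minus strand: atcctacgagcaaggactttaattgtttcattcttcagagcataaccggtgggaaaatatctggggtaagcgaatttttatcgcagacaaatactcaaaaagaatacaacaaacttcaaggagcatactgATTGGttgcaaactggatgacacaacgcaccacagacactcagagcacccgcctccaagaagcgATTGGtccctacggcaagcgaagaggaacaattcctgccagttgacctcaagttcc
Mrpl3, chr9:105053018-105053267, plus strand: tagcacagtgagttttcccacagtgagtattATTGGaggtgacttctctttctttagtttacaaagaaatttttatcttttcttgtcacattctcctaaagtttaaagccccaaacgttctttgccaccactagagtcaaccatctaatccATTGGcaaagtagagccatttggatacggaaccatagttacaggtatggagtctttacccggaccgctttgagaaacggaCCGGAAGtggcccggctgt
Mrpl35, chr6:71823785-71824034, minus strand: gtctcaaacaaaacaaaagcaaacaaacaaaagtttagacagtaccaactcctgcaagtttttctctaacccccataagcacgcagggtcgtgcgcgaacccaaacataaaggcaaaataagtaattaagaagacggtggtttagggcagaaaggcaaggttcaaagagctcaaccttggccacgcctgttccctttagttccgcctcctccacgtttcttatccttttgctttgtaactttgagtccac
Mrps25, chr6:92184024-92184273, minus strand: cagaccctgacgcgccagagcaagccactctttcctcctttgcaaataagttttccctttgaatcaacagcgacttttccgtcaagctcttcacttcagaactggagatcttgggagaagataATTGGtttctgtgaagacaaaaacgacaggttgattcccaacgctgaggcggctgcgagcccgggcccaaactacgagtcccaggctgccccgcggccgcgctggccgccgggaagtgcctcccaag
The sequence before Mrpl17 had the most CpG dinucleotides of the 6, 29 in 250 bases at 68.4% G and C, with 1 NRF1, 1 ETS and 3 SP matches, the ETS match overlapping an SP match. Mrpl32 had 12 CpG in 204 bases and 4 NRF1 matches, of which a palindromic stretch gives 1 on each strand. Mrpl3 and Mrpl35 had 7 and 8 CpG in 250 bases, at 42.8% and 44.4% G and C. Mrps30 had 9 CpG at 45.2%, and Mrps25 had 16 at 56%. Mrps30, Mrpl3, Mrpl35 and Mrps25 all had fewer CpG than Mrpl17, and Mrps25 was on a level with Mrpl32 for its length. The 6 sequences were chosen by their calls, so these counts cannot tell whether CpG goes with loss.

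In DMSO, MLL1 was called at nearly all genes of the mitochondrial ribosome in 3 of the 4 lines. It lay at a gene end of 70 of 78 members in NUP98-HOXA9 (89.7%, interval 81 to 94.7), where 45.0% of all genes were bound. In NUP98-HOXD13 it was 68 of 78 (87.2%, interval 78 to 92.9) beside 45.6% of all genes. In NUP98-JARID1A it was 69 of 78 (88.5%, interval 79.5 to 93.8) beside 41.2%. The shares of members were thus close to each other in these lines, and each interval lay above the share of all genes. NUP98-NSD1 had 27 bound members (34.6%, interval 25 to 45.7) beside 22.1% of all genes, in the shortest MLL1 list in DMSO, of 7113 regions.

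Menin and H3K4me3 lay at many of the same members. Menin lay at 71 of 78 members in NUP98-HOXD13 (91%, interval 82.6 to 95.6; all genes 44.9%) and at 41 of 78 in NUP98-HOXA9 (52.6%, interval 41.6 to 63.3; all genes 27.8%). H3K4me3 lay at 68 of 78 in NUP98-HOXA9 (87.2%, interval 78 to 92.9; all genes 37.2%). MLL1 and H3K4me3 were both at 66 members in NUP98-HOXA9, beside 35.9% of all genes, and at 38 members Menin was there too, beside 23.5%. These counts ask only for a region of each target at either gene end. Regions of MLL1, Menin and H3K4me3 overlapped each other at 27 members, and those of MLL1 and H3K4me3 at 64. In this line MLL1 was mapped at 72 h, and Menin and H3K4me3 at 96 h. MLL1 and Menin were both at 66 members in NUP98-HOXD13, beside 43.1% of all genes. Of the 71 members with Menin in NUP98-HOXD13, 41 also had it in NUP98-HOXA9 (57.7%), where the Menin list held 9050 regions against 18826, and over all genes that share was 61.7%.

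Large and small subunit genes are set side by side as counts, and their difference was not tested. For MLL1 in NUP98-HOXA9 in DMSO, 44 of 49 Mrpl genes (89.8%, interval 78.2 to 95.6) and 26 of 29 Mrps genes (89.7%, interval 73.6 to 96.4) were bound. Menin in NUP98-HOXA9 lay at 28 of 49 Mrpl genes (57.1%, interval 43.3 to 70) and 13 of 29 Mrps genes (44.8%, interval 28.4 to 62.5), with overlapping intervals. MLL1 in NUP98-HOXD13 lay at 44 Mrpl genes (89.8%) and 24 Mrps genes (82.8%). The split follows the symbols, and the proteins of Mrps30 and Mrps18a are known to sit in the large subunit in spite of their names.

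**Figure D1:**
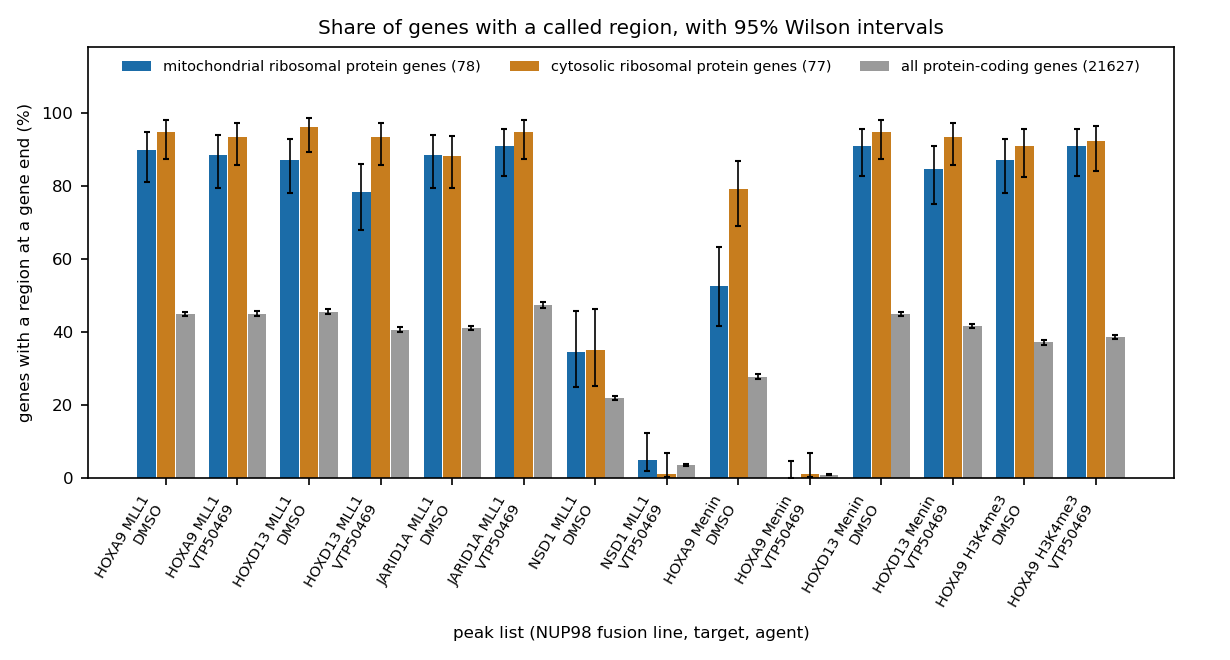
Percent of genes with a called region within 1 kb of a gene end (vertical axis) in each of the 14 peak lists (horizontal axis), for the 78 mitochondrial ribosomal protein genes, the 77 cytosolic ribosomal protein genes and all 21627 genes; bars are shares and whiskers are 95% Wilson intervals. Members stand near 90% for MLL1 in DMSO in 3 lines, at 34.6% in NUP98-NSD1, and at 0 for Menin in NUP98-HOXA9 after VTP50469.

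After VTP50469, MLL1 calls at the members stayed in the 3 lines labelled 2 µM and were mostly gone in NUP98-NSD1. Bound members numbered 69 in NUP98-HOXA9 (all genes 45.0%), 61 in NUP98-HOXD13 (all genes 40.6%), 71 in NUP98-JARID1A (all genes 47.4%) and 4 in NUP98-NSD1 (all genes 3.60%). Menin fell to 0 members in NUP98-HOXA9 (upper bound of the interval 4.69%; all genes 0.971%) but was still at 66 in NUP98-HOXD13 (41.6%). H3K4me3 was at 71 members (38.7%). The 63 members bound by MLL1 in DMSO in all 3 lines labelled 2 µM include 57 that kept it in all 3 (90.5%), and the share over all such genes was 93.2%, so the members stood near the background here.

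In NUP98-HOXA9, where MLL1 was mapped after 72 h, 2 members lost MLL1, Mrpl3 and Mrps31, and 1 gained it, Mrpl11. That is 2.86% of 70 bound members (interval 0.787 to 9.83) beside 3.93% of all bound genes, and for gains 1 of 8 beside 3.34%. Summed over members, MLL1 covered 59443 bp in DMSO and 52927 bp after VTP50469, a ratio of 0.89, where the ratio over all genes was 0.766. Of 76 covered members, 44 were shorter (57.9%; all genes 63.0%) and 32 longer, and 6 had at most 50% of their length left (7.89%; all genes 12.8%). The summed length over members thus went down by a smaller part than the sum over all genes. The median ratio per covered gene was nearly the same, at 0.908 for members and 0.897 for all genes.

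In the same line no Menin region was called at the members after VTP50469, while H3K4me3 was. The treated Menin list held 403 regions against 9050 in DMSO, and with the DMSO list reduced to its strongest 403 regions only 4 members were bound in DMSO, all 4 of them lost (all genes 60%). Menin covered 20397 bp over 46 members in DMSO and 0 bp after VTP50469, and all 41 bound members lost it (100%, interval 91.4 to 100; all genes 96.6%). None of 37 unbound members gained it (all genes 0.0256%), and all 46 covered members had at most 50% left (all genes 98.7%). H3K4me3 covered 70476 bp in DMSO and 77500 bp after VTP50469, a ratio of 1.1 beside 1.08 over all genes. Mrpl45, whose protein anchors the ribosome at the inner membrane, was the 1 member of 68 that lost H3K4me3 (1.47%; all genes 3.95%). Mrps25, Mrps16, Mrpl33 and Mrpl52 gained it, 4 of 10 unbound members (all genes 4.64%), and 1 of 72 covered members had at most 50% left (all genes 5.68%). MLL1 and H3K4me3 were both at 67 members after VTP50469 (all genes 36.5%). The members' changes of Menin and H3K4me3 in this line were close to those of all genes, apart from the 4 gains of H3K4me3 among only 10 genes.

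In NUP98-HOXD13 MLL1 regions became shorter at most members, as they did at most genes. MLL1 covered 59479 bp in DMSO and 38872 bp after VTP50469, a ratio of 0.654 (all genes 0.583), with 66 of 74 covered members shorter (89.2%; all genes 89.7%) and 8 longer. At most 50% was left at 15 of 74 (20.3%; all genes 30.4%). The median ratio per covered gene was 0.679 for members and 0.667 for all genes. The call was lost at 8 of 68 bound members (11.8%, interval 6.08 to 21.5; all genes 12.2%): Mrpl1, Mrpl11, Mrpl18, Mrpl33, Mrpl35, Mrpl46, Mrps11 and Mrps15. Mrpl46 and Mrps11 lie head to head 42 bp apart and share 1 region, so they are 1 loss. At Mrpl1 and Mrpl18, 265 and 678 bp of MLL1 cover remained away from the annotated ends. For Mrpl18 this was a region at its RefSeq start site, so the loss there was at the annotated ends only. Counting at start sites gave 10 losses among 64 bound members. They included Mrpl36, Mrpl58 and Mrps2, which are not among the losses at annotated ends. The MLL1 length of Mrps2 went from 444 to 0 bp. Mrps10, a conserved small subunit protein gene, was the 1 gain among 10 unbound members (all genes 1.04%).

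Menin in NUP98-HOXD13 shortened less than MLL1. It covered 55618 bp in DMSO and 45955 bp after VTP50469, a ratio of 0.826 (all genes 0.79), and 68 of 77 covered members were shorter (88.3%; all genes 82.6%). At most 50% was left at 7 of 77 (9.09%; all genes 13.5%). The median ratio per covered gene was 0.844 for members and 0.833 for all genes. Mrpl16, Mrpl53, Mrps31, Mrpl3 and Mrps25 lost Menin, 5 of 71 bound members (7.04%, interval 3.05 to 15.4; all genes 8.75%). None of the 7 unbound members gained it (all genes 1.11%). With lists of equal length, 2 of 68 members lost it (2.94%; all genes 6.34%). MLL1 and Menin were both at 60 members after VTP50469 (all genes 38.9%). The absence of Menin calls at the members in NUP98-HOXA9 was therefore not seen in NUP98-HOXD13 at the same dose and time; the difference between the lines was not tested, with 1 library each.

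In NUP98-JARID1A MLL1 regions became longer at most members, and at a larger share of all genes. MLL1 covered 54902 bp in DMSO and 64889 bp after VTP50469, a ratio of 1.18 (all genes 1.31), and 49 of 74 covered members were longer (66.2%; all genes 72.4%), 22 of them at 150% or more of the DMSO length (29.7%; all genes 37.6%). Mrpl39, Mrps22, Mrpl11, Mrps2 and Mrpl35 gained the call, 5 of 9 unbound members (all genes 11.3%). Mrps2 had MLL1 at its RefSeq start site, inside the gene, in both lists (290 and 332 bp). It was thus a gain at the annotated ends only, and counting at start sites gave 4 gains. Mrpl16, Mrpl3 and Mrps25 lost the call, 3 of 69 bound members (4.35%, interval 1.49 to 12), where only 1.01% of all bound genes did. At most 50% was left at 6 of 74 (8.11%; all genes 2.51%). The treated list held 24950 regions against 15765 in DMSO. With both lists reduced to their strongest 15765 regions, 14 of 69 members were lost (20.3%) beside 10.4% of all genes, 2 were gained, and the ratio of covered length was 1.01. In both settings a larger share of members than of all genes was lost, on small counts.

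In NUP98-NSD1, given 200 nM by its label, MLL1 went from 17614 bp over 29 members to 1400 bp, a ratio of 0.0795 (all genes 0.094). Lost members were 24 of 27 (88.9%, interval 71.9 to 96.1; all genes 86.2%), and 28 of 29 covered members had at most 50% left (96.6%; all genes 94.1%). All 9 bound Mrps genes and 15 of 18 bound Mrpl genes lost the call. Mrpl2, Mrpl30 and Mrpl32 kept it, and Mrpl17 gained it, 1 of 51 unbound members (all genes 0.712%). The treated list held 1036 regions. When the DMSO list was reduced to its strongest 1036 regions, only 3 members were bound in DMSO, all 3 were lost and 4 were gained, with a ratio of covered length of 0.922 in place of 0.0795, so the kept members had regions below that rank in DMSO. Losses at the members in this line were near those of all genes in the full lists.

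**Figure D2:**
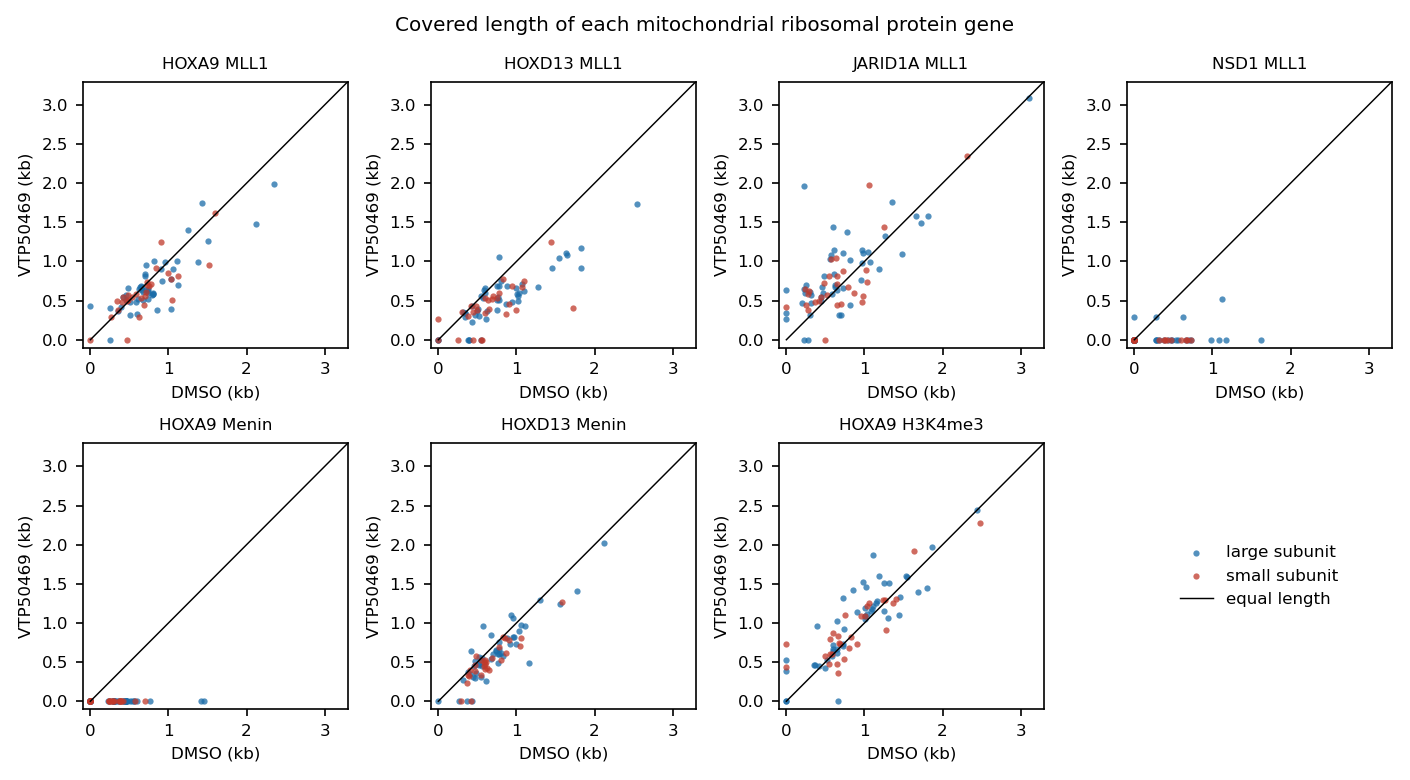
Covered length in kb of each of the 78 genes in DMSO (horizontal axis) and after VTP50469 (vertical axis), in 1 panel per line and target; points are genes, coloured by subunit symbol, and the line marks equal length. Most points lie below the line for MLL1 and Menin in NUP98-HOXD13, on both sides of it for MLL1 in NUP98-HOXA9, mostly above it in NUP98-JARID1A, and at or near 0 after VTP50469 for MLL1 in NUP98-NSD1 and Menin in NUP98-HOXA9.

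Members that lost a call had weaker regions in DMSO, by the median, than members that kept it in 5 of the 6 pairs in which any was kept. Some counts were very small, with 1 lost member for H3K4me3 and 2 for MLL1 in NUP98-HOXA9. The strength used is the percentile of the authors' fold enrichment among the regions of the same list. For MLL1 in NUP98-HOXD13 the median percentile was 47.8 for the 8 lost members and 73.9 for the 60 kept ones. For Menin in NUP98-HOXD13 it was 12.6 and 64.2, and for MLL1 in NUP98-JARID1A it was 15.2 and 55.4. Over all genes of these lists the lost ones were likewise lower, at 31, 22.6 and 19 against 77, 74.8 and 65.2 for the kept. In NUP98-NSD1 the 3 kept members had a median percentile of 24.3 and the 24 lost ones 44.9. Over all genes the kept ones were higher, at 73.5 against 52.1. The 3 kept members were widely spread, at 8.16 for Mrpl2, 24.3 for Mrpl32 and 80.1 for Mrpl30, so their median says little.

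Values in all lists follow for 12 members taken by the naming rule, each given as DMSO and then VTP50469. Mrpl48 (chromosome 7, 100545779 to 100608301), a protein of the central protuberance of the large subunit, had the longest MLL1 cover in DMSO in 3 lines, and in NUP98-NSD1 Mrpl51, Mrpl57 and Mrpl30 had more, at 1627, 1176 and 1120 bp. Its MLL1 length was 2351 and 1995 bp in NUP98-HOXA9, 2548 and 1741 bp in NUP98-HOXD13, 3109 and 3089 bp in NUP98-JARID1A, and 1089 and 0 bp in NUP98-NSD1. Menin covered 1461 and 0 bp in NUP98-HOXA9 and 2119 and 2024 bp in NUP98-HOXD13, and H3K4me3 covered 1803 and 1451 bp. Mrpl48 was thus high in all DMSO lists and at 0 in the treated lists of NUP98-NSD1 MLL1 and NUP98-HOXA9 Menin, and the end of Rab6a, a Golgi transport GTPase gene, lies 726 bp from its own end.

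Mrpl38 (chromosome 11, 116131817 to 116138868), also of the central protuberance, had MLL1 lengths of 2118 and 1479 bp in NUP98-HOXA9, 1833 and 1176 bp in NUP98-HOXD13, 1810 and 1585 bp in NUP98-JARID1A, and 538 and 0 bp in NUP98-NSD1. Menin covered 509 and 0 bp in NUP98-HOXA9 and 1562 and 1237 bp in NUP98-HOXD13, and H3K4me3 covered 858 and 1418 bp. MLL1 and Menin were shorter after VTP50469 in every pair at this gene, and H3K4me3 was longer. Mrps18b (chromosome 17, 35910380 to 35916440), a small subunit protein gene 72 bp from Ppp1r10, had MLL1 lengths of 1592 and 1615 bp in NUP98-HOXA9, 1437 and 1243 bp in NUP98-HOXD13, 1053 and 1979 bp in NUP98-JARID1A, and 0 and 0 bp in NUP98-NSD1. Its Menin lengths were 699 and 0 bp in NUP98-HOXA9 and 1585 and 1274 bp in NUP98-HOXD13, and H3K4me3 covered 1242 and 1295 bp. Mrps18b therefore had long MLL1 cover in 3 lines and no call in NUP98-NSD1.

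Mrpl2, Mrpl30 and Mrpl32 had a region in 13 of the 14 lists, and no member had one in all 14. Mrpl2 (chromosome 17, 46646172 to 46650132), whose protein lies at the peptidyl transferase centre, had MLL1 lengths of 1512 and 1259 bp in NUP98-HOXA9, 1636 and 1107 bp in NUP98-HOXD13, 1260 and 1323 bp in NUP98-JARID1A, and 276 and 291 bp in NUP98-NSD1. Menin covered 762 and 0 bp in NUP98-HOXA9 and 1301 and 1289 bp in NUP98-HOXD13, and H3K4me3 covered 1096 and 1184 bp. Mrpl2 was the covered member whose MLL1 length in NUP98-NSD1 did not go down.

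Mrpl30 (chromosome 1, 37890477 to 37898338) had MLL1 lengths of 738 and 620 bp in NUP98-HOXA9, 569 and 534 bp in NUP98-HOXD13, 955 and 768 bp in NUP98-JARID1A, and 1120 and 525 bp in NUP98-NSD1. Menin covered 455 and 0 bp in NUP98-HOXA9 and 559 and 454 bp in NUP98-HOXD13, and H3K4me3 covered 1452 and 1329 bp. Its DMSO length of MLL1 was longest in NUP98-NSD1, unlike that of Mrpl2. Mrpl32 (chromosome 13, 14610301 to 14613037), whose protein is cut by an inner membrane protease before it joins the ribosome, had MLL1 lengths of 1127 and 695 bp in NUP98-HOXA9, 1010 and 588 bp in NUP98-HOXD13, 729 and 666 bp in NUP98-JARID1A, and 627 and 297 bp in NUP98-NSD1. Menin covered 293 and 0 bp in NUP98-HOXA9 and 824 and 576 bp in NUP98-HOXD13, and H3K4me3 covered 978 and 1520 bp. All 3 genes lie beside another gene, Klc4 at 17 bp, Mitd1 at 28 bp and Psma2 at 205 bp, so the regions cannot be given to 1 gene of each couple.

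Mrpl3 (chromosome 9, 105053268 to 105077466), a conserved protein near the peptidyl transferase centre, was lost in more pairs than most members. Its MLL1 length was 255 and 0 bp in NUP98-HOXA9, 0 and 0 bp in NUP98-HOXD13, 226 and 0 bp in NUP98-JARID1A, and 0 and 0 bp in NUP98-NSD1. Menin covered 0 and 0 bp in NUP98-HOXA9 and 264 and 0 bp in NUP98-HOXD13, and H3K4me3 covered 579 and 575 bp. Every MLL1 and Menin region at Mrpl3 was short and absent after VTP50469, and H3K4me3 was called in both lists. Mrpl16 and Mrps25 also lost the call in 3 of the 7 pairs.

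Mrps31 (chromosome 8, 22410449 to 22429669) had MLL1 lengths of 466 and 0 bp in NUP98-HOXA9, 553 and 0 bp in NUP98-HOXD13 (inside the gene, away from its ends), 526 and 573 bp in NUP98-JARID1A, and 0 and 0 bp in NUP98-NSD1. Menin covered 0 and 0 bp in NUP98-HOXA9 and 290 and 0 bp in NUP98-HOXD13, and H3K4me3 covered 1360 and 1255 bp. After VTP50469 Mrps31 had no MLL1 left in NUP98-HOXA9 and NUP98-HOXD13, and its length in NUP98-JARID1A was about that of DMSO. Mrpl11 (chromosome 19, 4962152 to 4966995), a protein of the site where translation factors dock, had MLL1 lengths of 0 and 436 bp in NUP98-HOXA9, 384 and 0 bp in NUP98-HOXD13, 0 and 347 bp in NUP98-JARID1A, and 0 and 0 bp in NUP98-NSD1. Menin covered 0 and 0 bp in NUP98-HOXA9 and 450 and 312 bp in NUP98-HOXD13, and H3K4me3 covered 352 and 466 bp. Mrpl11 was called in 1 list of each of 3 MLL1 pairs, in the treated list in 2 of them and in the DMSO list in the other.

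Mrps30 (chromosome 13, 118380110 to 118387252) has no other gene end within 2 kb, and the nearest, of Fgf10, is 327447 bp away. Its MLL1 length was 1041 and 503 bp in NUP98-HOXA9, 991 and 385 bp in NUP98-HOXD13, 966 and 479 bp in NUP98-JARID1A, and 658 and 0 bp in NUP98-NSD1. Menin covered 0 and 0 bp in NUP98-HOXA9 and 602 and 480 bp in NUP98-HOXD13, and H3K4me3 covered 745 and 1098 bp. Mrps30 was the only member of the 25 with MLL1 cover in DMSO in all 4 lines whose length went to at most 50% in each of them (4%), and 1.48% of 5413 such genes did so. MLL1 in NUP98-JARID1A went down there while it went up at most members.

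Mrpl22 and Mrpl24, with Mrpl4 and Mrps23, had no region at an annotated gene end in any list, but they were not free of MLL1. Mrpl22 (chromosome 11, 58170043 to 58179580), whose protein lines the exit tunnel, had MLL1 lengths of 744 and 596 bp in NUP98-HOXA9, 807 and 755 bp in NUP98-HOXD13, 965 and 981 bp in NUP98-JARID1A, and 481 and 0 bp in NUP98-NSD1. Menin covered 0 and 0 bp in NUP98-HOXA9 and 955 and 816 bp in NUP98-HOXD13, and H3K4me3 covered 1007 and 1055 bp. Mrpl24 (chromosome 3, 87918131 to 87923450) had MLL1 lengths of 458 and 569 bp in NUP98-HOXA9, 496 and 373 bp in NUP98-HOXD13, 206 and 474 bp in NUP98-JARID1A, and 0 and 0 bp in NUP98-NSD1. Menin covered 293 and 0 bp in NUP98-HOXA9 and 677 and 537 bp in NUP98-HOXD13, and H3K4me3 covered 0 and 0 bp. The RefSeq start sites of Mrpl22, Mrpl24 and Mrps23 lie 1621, 1413 and 10282 bp inside the annotated ends, as do those of Mrpl18, Mrpl36 and Mrps2 by 1696, 2506 and 2115 bp, so the windows at the ends miss them. Mrps2, bound in 1 list only by the window rule, had MLL1 in both lists of NUP98-HOXA9 inside the gene, at 346 and 493 bp.

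**Figure D3:**
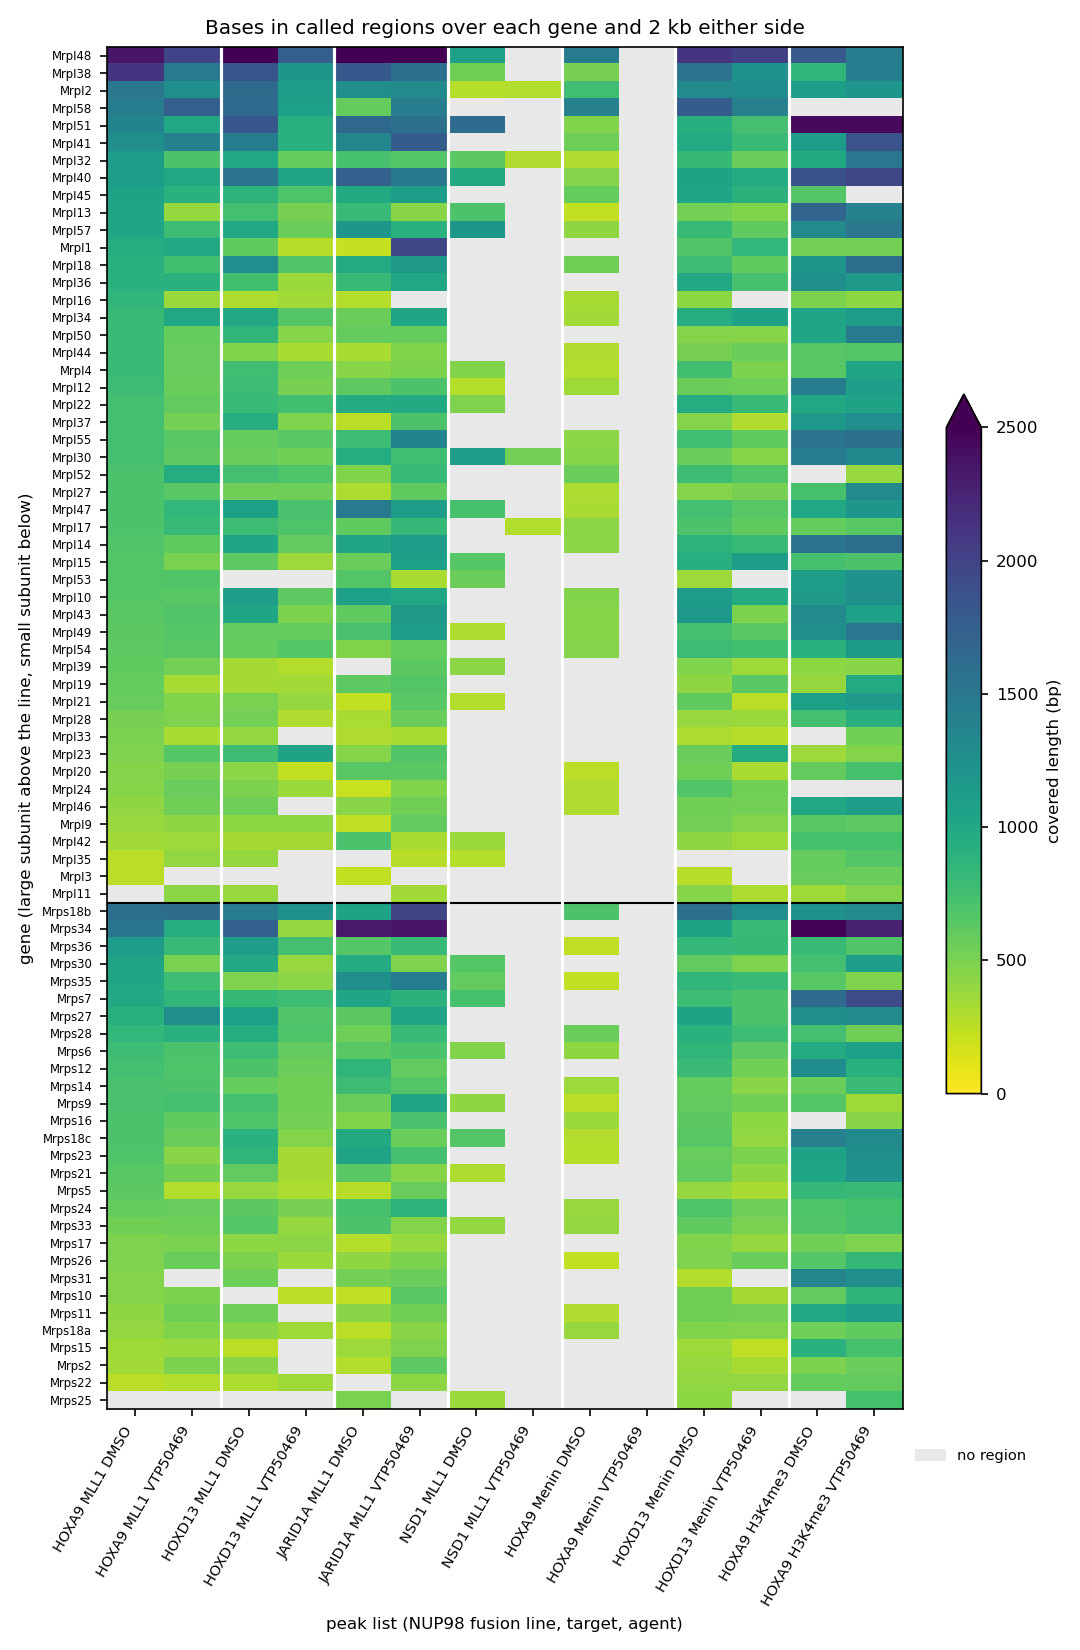
Covered length in bp (colour; grey means no region) of the 78 genes (rows, Mrpl above the black line and Mrps below, sorted by MLL1 length in NUP98-HOXA9 in DMSO) in the 14 lists (columns, DMSO and VTP50469 side by side). Mrpl48 is dark in most lists, Mrps25 is grey in most, and the column of Menin in NUP98-HOXA9 after VTP50469 is grey throughout.

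Counted at RefSeq start sites instead of annotated ends, over the 69 members that have one, the share of bound members was higher in DMSO in 6 of 7 lists and slightly lower for MLL1 in NUP98-NSD1. In DMSO, a region lay within 1 kb of a start site at 67 of 69 members for MLL1 in NUP98-HOXA9 (97.1%; all genes 47.5%), the exceptions being Mrpl11 and Mrps25. It was 64 of 69 in NUP98-HOXD13 (92.8%; all genes 48.3%), 65 in NUP98-JARID1A (94.2%; all genes 43.7%) and 23 in NUP98-NSD1 (33.3%; all genes 23.6%). Menin lay at 39 of 69 in NUP98-HOXA9 (56.5%; all genes 29.3%) and 68 in NUP98-HOXD13 (98.6%; all genes 47.3%), with Mrpl35 the exception, and H3K4me3 at 63 (91.3%; all genes 40.3%). All 4 lines had an MLL1 region at an annotated end of 23 members (29.5%; all genes 21.0%), and 43 members had it in exactly 3 lines (55.1%; all genes 19%).

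MLL1 and Menin summits sat just before the start site and H3K4me3 summits to either side of it. In NUP98-HOXA9 in DMSO the median MLL1 summit was -31 bp from the start (quartiles -76 and 12 bp), and 52 of 67 lay within 100 bp (77.6%; all genes 59.9%). The Menin median was -46 bp there and -29 bp in NUP98-HOXD13. The H3K4me3 median was 230 bp, and 46 of 63 summits lay more than 100 bp downstream (73%; all genes 84.6%), the remaining ones upstream and 0 within 100 bp (all genes 2.24%). In NUP98-NSD1 MLL1 summits were more spread, with a median of 8 bp and 9 of 23 within 100 bp (39.1%), near the 37.7% of all genes.

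**Figure D4:**
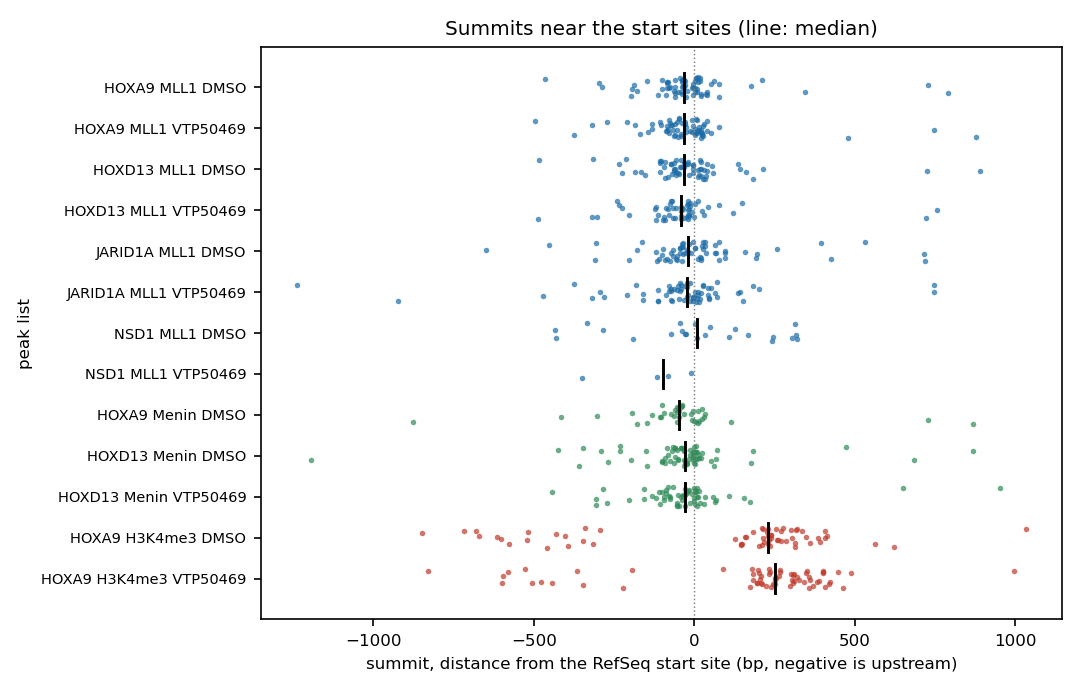
Distance in bp of the strongest summit from the RefSeq start site (horizontal axis, negative is upstream) for members bound there, in the 13 lists that have any; points are genes and black bars are medians. MLL1 and Menin points crowd at the start site, and H3K4me3 points form a downstream and an upstream group with at most 1 point within 100 bp of the start.

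MLL1 cover at the members was narrow. The median covered length in NUP98-HOXA9 in DMSO was 708 bp over 76 members, from 255 to 2351 bp, beside 918 bp over all covered genes. In NUP98-JARID1A the median was 627 bp beside 755 bp. No member reached 4 kb in NUP98-HOXA9 in DMSO, a length that was rare among all genes too, at 375 of 11466 covered genes. For H3K4me3 in NUP98-HOXA9 in DMSO the covered length of members was slightly longer, at 930 bp beside 870 bp over all covered genes. The strongest H3K4me3 region at a start site was narrower, with a median width of 680 bp at members and 766 bp at all genes. By fold, the members' strongest MLL1 regions ranked at a median percentile of 67.4 in the NUP98-HOXA9 DMSO list, and those of all bound genes at 75.9. The median rank of members was below that of all bound genes in each of the 13 lists with a bound member.

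Many members lie close to another gene. An end of another protein-coding gene, start or finish, lay within 1 kb of an end of 44 members (56.4%; all genes 25.1%) and within 2 kb of 50 (64.1%; all genes 32.6%), and 28 had none within 2 kb. A region near the ends of 2 genes cannot be split between them. In NUP98-HOXA9 in DMSO the 70 bound members had 69 different strongest regions, since Mrpl46 and Mrps11 have the same one, of 415 bp in DMSO and 542 bp after VTP50469.

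Shares of members with the ETS, YY1 and NRF1 motifs were above those of all genes, in the 250 bases before to 50 after a start site. The ETS motif CCGGAAG was in 26 of 69 members (37.7%), beside 13.1% of 17273 genes and 22.9% of the 7943 genes with MLL1 at an end in NUP98-HOXA9 in DMSO. The YY1 motif AAGATGGC was in 12 (17.4%, beside 3.6% and 5.92%) and the NRF1 motif GCATGCGC in 8 (11.6%, beside 3.97% and 6.62%). At least 1 of these 3 was in 38 members (55.1%), beside 18.9% and 32%. CCAAT was in 27 (39.1%, beside 42.7% and 43.7%) and GGGCGG in 34 (49.3%, beside 49.8% and 70%). In 57 cytosolic ribosomal protein genes the ETS share was 40.4%, the YY1 share 8.77%, the NRF1 share 5.26% and the share with any of the 3 54.4%, so neither the ETS nor the combined share was particular to the members. By symbol, the NRF1 motif was in 7 of 43 Mrpl genes (16.3%) and 1 of 26 Mrps genes (3.85%), and GGGCGG in 17 of 43 (39.5%) and 17 of 26 (65.4%); these differences were not tested. A match is a description and not a bound site.

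In the splits that follow, binding was counted at annotated gene ends and motifs around start sites. For Menin in NUP98-HOXA9, Mrpl18, Mrpl24 and Mrps23 thus count as unbound and Mrpl58 as bound, though the calls at their start sites are the reverse. Of the 69 members with a promoter, Menin in NUP98-HOXA9 in DMSO was at 23 of 34 with the SP motif (67.6%) and 14 of 35 without it (40%). It was at 9 of 27 with CCAAT (33.3%) and 28 of 42 without it (66.7%). For the other motifs the shares with and without were 57.7% and 51.2% (ETS), 50% and 54.1% (NRF1) and 41.7% and 56.1% (YY1). For MLL1 in NUP98-NSD1 in DMSO they were 38.2% and 28.6% with and without the SP motif, and 29.6% and 35.7% for CCAAT, so the contrasts were smaller there. The remaining pairs were 30.8% and 34.9% (ETS), 25% and 34.4% (NRF1) and 41.7% and 31.6% (YY1). For Menin in NUP98-HOXA9 the median promoter had 24 CpG in the 37 bound members and 17.5 in the 32 unbound ones. MLL1 in NUP98-NSD1 in DMSO had a median of 24 CpG in 23 bound and 18 in 46 unbound members. The members with a region in these shorter lists thus had a higher median CpG count in the promoter, as a description over genes. The same splits were not made over all genes, so it is not known whether these contrasts are particular to the members.

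**Figure D5:**
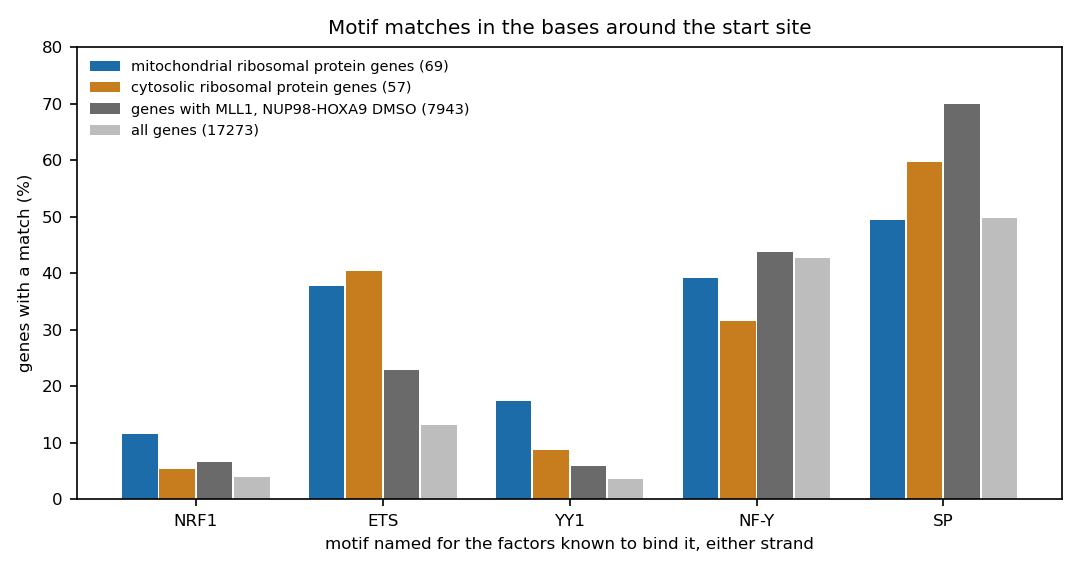
Percent of genes with a motif match in the promoter (vertical axis) for 5 motifs (horizontal axis; NF-Y stands for the CCAAT box) in 4 gene groups, with bars as shares. ETS, YY1 and NRF1 bars of the members stand above those of MLL1-bound and of all genes, and the SP bar stands below that of MLL1-bound genes.

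Other genes of mitochondrial translation gave a like picture. This list of 69 genes holds mitoribosome proteins under other symbols (such as Dap3 and Ptcd3), assembly factors, translation factors, mitochondrial aminoacyl-tRNA synthetases, mitochondrial transcription factors and nuclear regulators. In DMSO, MLL1 was at 63 of 69 genes in NUP98-HOXA9 (91.3%), 63 genes in NUP98-HOXD13, 56 genes in NUP98-JARID1A (81.2%) and 22 genes in NUP98-NSD1 (31.9%). The shares of all genes were 45.0%, 45.6%, 41.2% and 22.1%. Losses were 3, 8, 0 and 21 and gains 2, 0, 7 and 2 in that order. Of all bound genes 3.93%, 12.2%, 1.01% and 86.2% were lost, and of all unbound genes 3.34%, 1.04%, 11.3% and 0.712% were gained. Menin was lost at 35 of 36 in NUP98-HOXA9 (all genes 96.6%) and 3 of 62 in NUP98-HOXD13 (all genes 8.75%), and H3K4me3 at 2 of 59 (all genes 3.95%). The list had no loss in NUP98-JARID1A, where 3 of 69 bound members and 1.01% of all bound genes lost the call. This difference was not tested.

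The 3 of these genes with the longest MLL1 cover in NUP98-HOXA9 in DMSO were Fars2, Esrra and Yy1. Fars2, the mitochondrial phenylalanyl-tRNA synthetase, had MLL1 lengths of 13546 and 2447 bp in NUP98-HOXA9, 2527 and 570 bp in NUP98-HOXD13, 778 and 1713 bp in NUP98-JARID1A, and 426 and 0 bp in NUP98-NSD1. Esrra, a nuclear receptor that drives mitochondrial genes, had 2653 and 2471 bp, 2767 and 2328 bp, 3039 and 3151 bp, and 0 and 273 bp in the same order. Yy1, a zinc finger factor, had 2457 and 2065 bp, 2388 and 1678 bp, 2658 and 2825 bp, and 772 and 442 bp. Fars2 stood far above every member in NUP98-HOXA9 in DMSO, and Esrra and Yy1 had MLL1 in NUP98-NSD1 after VTP50469.

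Genes of the cytosolic ribosome, 77 by the same kind of rule, had MLL1 in DMSO at 73 genes in NUP98-HOXA9 (94.8%), 74 genes in NUP98-HOXD13 (96.1%), 68 genes in NUP98-JARID1A (88.3%) and 27 genes in NUP98-NSD1 (35.1%). The shares of all genes were 45.0%, 45.6%, 41.2% and 22.1% in the same order. The clearest difference in counts was Menin in NUP98-HOXA9 in DMSO, at 61 of 77 cytosolic genes (79.2%, interval 68.9 to 86.8) and 41 of 78 mitochondrial ones, whose intervals do not overlap. Both shares were above the 27.8% of all genes. After VTP50469 in NUP98-HOXD13, MLL1 was lost at 2 of 74 cytosolic genes (2.7%, interval 0.744 to 9.33). It was lost at 8 of 68 mitochondrial ones (11.8%, interval 6.08 to 21.5) and at 12.2% of all bound genes. The mitochondrial share was thus near that of all genes, and the cytosolic share was lower. In NUP98-JARID1A 0 of 68 cytosolic genes lost MLL1 and 3 of 69 mitochondrial ones (all genes 1.01%). NUP98-NSD1 went the other way, with MLL1 lost at 27 of 27 cytosolic genes (100%) and 24 of 27 mitochondrial ones (88.9%; all genes 86.2%). Genes are not replicates, and these differences were not tested.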

How the data were processed

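Chromatin immunoprecipitation libraries of 4 lines were analysed from 14 deposited peak lists, and the other 10 of the 24 libraries, input chromatin, were not used. The submitters' processing notes give the build mm10 and name MACS2, bedtools, SAMtools, Picard 2.9.4, STAR 2.7.5a and bcl2fastq 2.20.0.422. No setting, and no pairing of inputs with lists, is given in the sources used here. By label, NUP98-NSD1 has an input after VTP50469 only. NUP98-HOXA9 has input of DMSO only at 72 h and of VTP50469 only at 96 h. In these lines the labels thus give no input of the same agent and time for every list, and its effect on the calls was not tested. Peaks were called per library, per the labels. Peak names inside the MLL1 lists of NUP98-HOXD13 match the titles in line, target, agent, run date and barcode, and differ in the sample index at the end. For each peak the authors deposited a score (not used), a fold enrichment, which is their own ratio and was ranked only within its list, and −log10 p and q values. A deeper or cleaner library yields more and longer regions, so shares and lengths move with the list.

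Gene coordinates and promoters came from RefSeq tables of GRCm38.p6. The gene table gives no strand, so both annotated ends were used, in windows of 1 kb. Regions touching a window by 1 bp made a gene bound. Covered length used the span with 2 kb either side. Comparisons are counts, lengths and 95% Wilson intervals beside the same over all genes, since each group had 1 library and allows no test. Python 3.11.15, pandas 2.3.3, numpy 2.4.6 and scipy 1.17.1 were used, and the window counts were checked on simulated regions. Named members are, per pair, the 5 with the longest DMSO length, every lost or gained member up to 8 and otherwise the 5 of highest fold, those in most lists, those without MLL1 in DMSO, and those at most 50% or at least 150% of DMSO length in 3 or more lines; 12 have all values printed. The exceptions Mrpl11 and Mrps25 at start sites, and Mrpl16 and Mrps25 as lost in 3 pairs, were named after their values were seen. So were the members with displaced start sites, and those whose calls differ between start sites and annotated ends. 1 further marker of another cell type is not reported here, for a reason unrelated to its value. The members and gene lists were chosen with earlier results of these data known. The alternatives were a −log10 q of at least 5, lists of equal length, windows of 500 bp or 2 kb, an overlap of at least 200 bp, start sites only, gene spans or end windows only for lengths, neighbouring bases counted once, targets that overlap each other, and members without a neighbour.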

Additional observations from a re-analysis of the deposited data

Results flagged for a closer look

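The covered length of MLL1 over the 78 genes moved in opposite directions between lines under the same contrast. VTP50469 over DMSO, the ratio was 0.89 in NUP98-HOXA9, 0.654 in NUP98-HOXD13 and 0.0795 in NUP98-NSD1, and 1.18 in NUP98-JARID1A. Each line had 1 library per agent, so the difference was not tested. The ratio over all genes was 0.766, 0.583, 0.094 and 1.31 in the same order. With lists of equal length the members' ratio was 0.922 in NUP98-NSD1 and 1.01 in NUP98-JARID1A, so the size of the contrast depends on the list lengths. The 0.922 sets 4 gained members against 3 other members that were lost, with a median ratio of 0, so it does not mean that calls were kept. Over all genes in that setting, 37.6% of the length was left in NUP98-NSD1, where 65.8% of bound genes were lost. In NUP98-JARID1A the length over all genes was 108% of DMSO. Between NUP98-NSD1 and the other lines the labelled dose differs as well, and for NUP98-HOXA9 the time. In comparisons with these lines, line, dose and time cannot be told apart. NUP98-HOXD13 and NUP98-JARID1A, at 0.654 and 1.18, had the same labelled dose and time.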

How the results depend on the processing

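Of the recomputed values, 219 stayed within 1.5 times the reported count or ratio, or kept the call, and 27 moved. Where a setting held fewer members, shares and not counts were compared, so an equal count could be among the values that moved. Leaving out a replicate was not possible with 1 library per group. No paired analysis was possible because each group has 1 library and no result comes from a test.

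Lists of equal length moved most. They gave 14 lost and 2 gained members for MLL1 in NUP98-JARID1A, 1 lost in NUP98-HOXA9 and 2 gained in NUP98-HOXD13. For MLL1 in NUP98-NSD1 they left 3 members bound in DMSO, with 3 lost, 4 gained and a length ratio of 0.922. Menin in NUP98-HOXA9 had 4 bound in DMSO and 4 lost, and Menin in NUP98-HOXD13 had 2 lost. With a −log10 q of at least 5, 5 members were lost in NUP98-JARID1A, 2 were gained in NUP98-NSD1 and 2 lost H3K4me3. With windows of 500 bp, and with at least 200 bp of overlap, 1 member lost MLL1 in NUP98-HOXA9 and 0 lost H3K4me3. The gene span alone gave a ratio of 0.0417 for NUP98-NSD1. Among the 28 members with no other gene end within 2 kb, MLL1 had 2 lost and 1 gained in NUP98-HOXA9, 1 gained in NUP98-HOXD13, 2 lost and 3 gained in NUP98-JARID1A and 1 gained in NUP98-NSD1, and Menin in NUP98-HOXD13 had 3 lost and H3K4me3 1 lost. Fewer regions or fewer genes enter these settings by construction; for the windows and the overlap the cause was not tested. The ratio in NUP98-JARID1A lay between 1.01 and 1.42 over its settings. Read depth is unknown, and it limits what absence of a region can show.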
